A study of Macaca mulatta with 8 samples.

Results

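CD101, APBB1IP, ADAP2 and ALOX5, genes known from microglia and blood leukocytes, were followed in 2 areas of the rhesus macaque neocortex. They were chosen by name, with earlier results of these data known. Each was read through its only named probe on the array (A_01_P006608 for CD101, A_01_P000196 for APBB1IP, A_01_P009911 for ADAP2 and A_01_P009461 for ALOX5). They are 4 of the 835 genes that could be named among 20217 probes. The tissue came from the left hemisphere of 4 untreated adolescent animals, 2.6 to 2.7 years old. A46 is a prefrontal association area on the banks of the principal sulcus, and M1 is the primary motor cortex, sampled here in its forelimb part. The question given by the series title is which genes are expressed differently in these areas, and each area was measured on 4 single-colour arrays, numbered 1 to 4.

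Microglia are the resident macrophages of the brain parenchyma, and they arise from the yolk sac rather than from blood-forming marrow. They survey the tissue with moving processes and take up debris and synaptic material. Monocytes, granulocytes and lymphocytes of the blood share many of their genes, and healthy cortex holds few such cells outside its vessels and borders. CD101 is a surface receptor of the immunoglobulin superfamily, APBB1IP and ADAP2 are adaptors that act at the inner face of the membrane, and ALOX5 is an enzyme that makes lipid signals.

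The label could not be checked against the usual markers. Of 57 other microglial genes in the marker list, among them AIF1, CX3CR1, P2RY12, TMEM119 and CSF1R, 0 had a named probe. None of the 18 genes listed for B cells and plasma cells had a named probe either. The genes are therefore referred to by name below, and no cell type is assigned to their signal. In bulk tissue, fewer cells of a type and less RNA per cell cannot be told apart.

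Levels are log2 intensities from which the array's own 75th percentile was subtracted, so that 0 is the brightness of that percentile. Differences are A46 minus M1. The 75th percentile lay between 1232 and 2008 scanner units, each array measured 71.4% to 77.3% of its probes well above background, and the number of arrays limited the precision. The 2 later of 4 scan days took in A46 replicates 3 and 4 with M1 replicate 4, whose median negative control spot was 2.78 to 4.90 units, against 1.11 to 1.41 on the other 5 arrays. The difference between the areas is also given for each gene on those 5 arrays, and the shares of variation on 4 of them.

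CD101 was the only one of the 4 genes whose A46 and M1 arrays did not overlap, against 6.46% of the tested probes. It lay higher in A46 on all 4 arrays, by 1.50-fold on average. For APBB1IP, ADAP2 and ALOX5 the mean lay slightly higher in M1, by 1.12-fold, 1.13-fold and 1.09-fold, and the areas overlapped. Without regard to the replicate numbers, 0 of the 4 passed an adjusted p of 0.05 in limma, against 0.184% of the 14698 probes tested. With the replicate number as a block, CD101 passed, 1 of 4, against 2.59% of the probes tested, and against 0.973% that passed as higher in A46. CD101 entered the test through A46 alone, the area where it lay higher. It was well above background on all 4 A46 arrays but on only 3 M1 arrays. The median difference over all tested probes was 0.01, and that over the named ones was -0.01. P-values of the fit with area alone measure the spread between the arrays of an area. Those with the replicate number as a block measure the spread of the differences within same-numbered pairs. The labels do not say which animal a replicate number stands for.

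**Figure D1:**
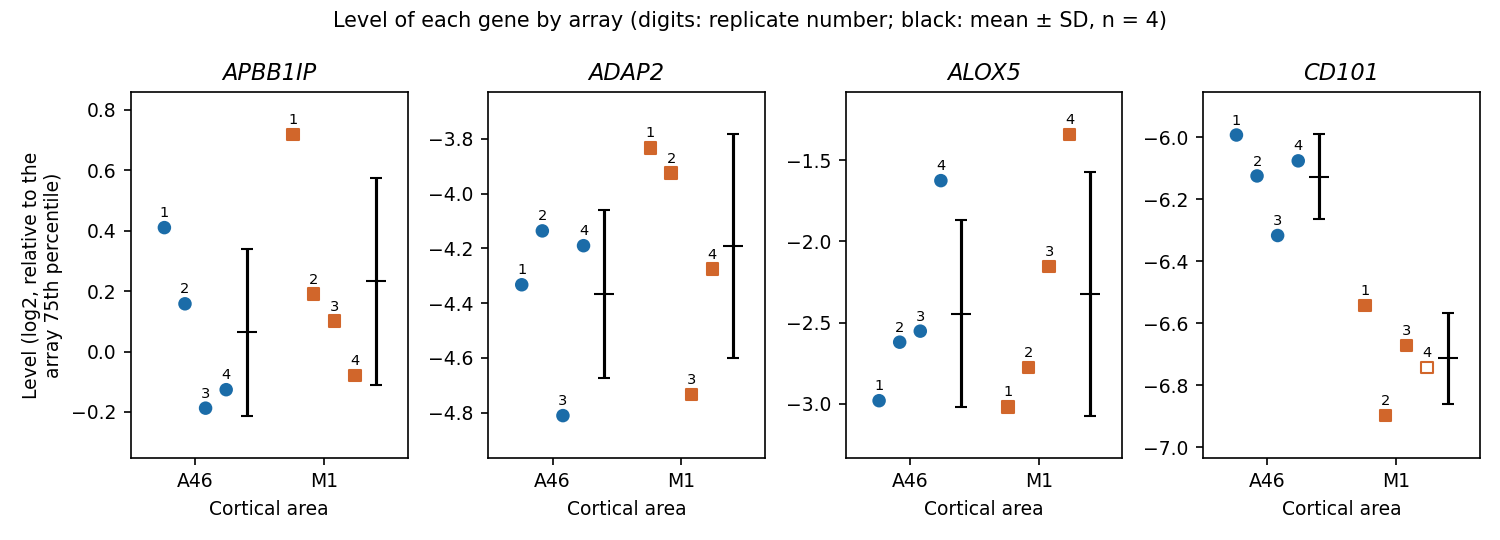
Level of APBB1IP, ADAP2, ALOX5 and CD101 on each array, on the y axis as log2 intensity minus the array's 75th percentile, for A46 (blue circles) and M1 (orange squares). Digits are replicate numbers, black bars are the mean ± SD of 4 arrays, and the open square is the M1 array on which CD101 was not well above background. The areas separate for CD101, between -6.32 and -6.54, and overlap for the other genes.

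CD101 is a cell-surface protein of monocytes, granulocytes, dendritic cells and activated T cells. In human and mouse T cells it restrains activation. In A46 its level was -5.99 in replicate 1, -6.13 in replicate 2, -6.32 in replicate 3 and -6.08 in replicate 4. In M1 it was -6.54 in replicate 1, -6.90 in replicate 2, -6.67 in replicate 3 and -6.74 in replicate 4. The lowest A46 array lay 0.23 log2 units above the highest M1 array.

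The means of CD101 were -6.13 ± 0.14 (SD, n = 4) in A46 and -6.71 ± 0.15 in M1. The log2 difference was 0.59 ± 0.12 SE (95% interval 0.30 to 0.87), and it did not pass in limma (adjusted p = 0.125; unadjusted p = 0.00132). With the replicate number as a block the limma adjusted p was 0.0489, just under the threshold (95% interval 0.34 to 0.83). The 4 same-numbered pairs differed by 0.55, 0.77, 0.35 and 0.67, all toward A46, where 33.3% of the tested probes had the same sign in all 4 pairs, in either direction. The value of the fourth pair rests on an M1 array where CD101 was not well above background.

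By an exact two-sided permutation test of the CD101 means over the 8 arrays, p was 0.0286, the smallest value that 4 arrays against 4 can give. Any probe without overlap reaches it, and 6.46% of the tested probes showed none. A difference larger in size than that of CD101 was measured for 5.72% of the tested probes. The gene was picked with these values known, so its permutation, sign-flip and limma p-values are descriptions of the separation.

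The call for CD101 depended on how the arrays were treated. Among the blocked fits it held with the deposited log2 values (adjusted p = 0.0493), and the random block gave 0.00871. It missed the threshold in the blocked fit after quantile normalization (0.168), after median centring (0.0518), with an intensity trend (0.102), with dim probes kept in the test (0.146) and after normexp background correction (0.467), where the difference was 0.13. That correction added an offset of 50 units, while CD101 measured 10.7 to 26.2 units. Such an offset shrinks the log2 difference of a dim probe, so the 0.13 is not comparable in size with the other fits. CD101 also missed in the blocked fit without the pair numbered 1 (0.199), 2 (0.190) or 4 (0.194), and passed without the pair numbered 3 (0.0363). The sign was positive in all of these fits. Over the area-only and blocked fits together the adjusted p ran from 0.00871 to 0.951.

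CD101 was a dim probe. Its intensity lay between 19.7 and 26.2 scanner units on the A46 arrays and between 10.7 and 18.8 units on the M1 arrays. The median pixel signal of its spots was 61.5 to 80 in A46 and 52 to 72 in M1, over a local background of 31 to 39 and 32 to 39. It was well above background on 4 of 4 A46 arrays and on 3 of 4 M1 arrays. On M1 replicate 4, the array with the highest negative control signal, it lay at 3.83 times the median negative control spot and was not well above background. The fit used the measured signal of that array.

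The probe was printed at 2 spots per array, which served as a check on its reading. From the first spot alone the difference of CD101 was 0.46 (exact permutation p = 0.0571, n = 4 against 4), and from the second alone it was 0.71 (exact permutation p = 0.0286). The spots of an array differed by a median of 0.15 log2 units and by 0.45 at most, on A46 replicate 3. That largest gap exceeds the distance of 0.23 between the areas.

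**Figure D2:**
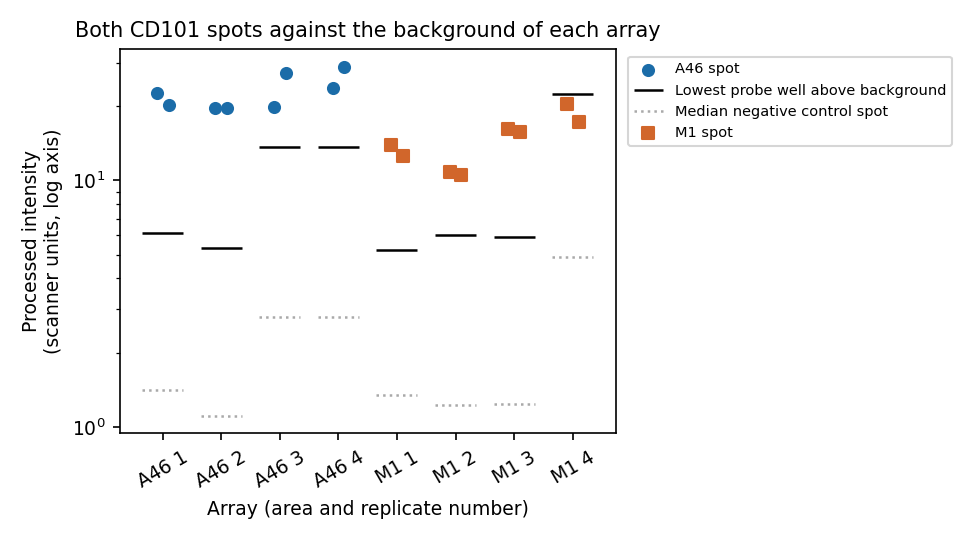
Processed intensity of both CD101 spots on each array, in scanner units on a log axis, with the lowest probe well above background (black line) and the median negative control spot (dotted line) of the same array. The array means span 19.7 to 26.2 units in A46 and 10.7 to 18.8 in M1, and only M1 replicate 4 lies below its black line.

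CD101 lay toward A46 within the first and the second scan day, where it was measured well above background in both areas. The difference was 0.66 on the first (1 A46 array against 2 M1 arrays) and 0.55 on the second (1 array each, on a shared slide). On the third day A46 replicate 4 met M1 replicate 4, where CD101 was not well above background. The lowest level well above background on that M1 array was -6.49, and CD101 in A46 replicate 4 lay 1.33-fold above it. That level is the lowest among all probes that were well above background there, so it is no detection limit of the CD101 probe. In a limma fit that took the scan day as a block, the difference was 0.63 (adjusted p = 0.0528), and on the 5 arrays of the 2 earlier days it was 0.64 (adjusted p = 0.411). A46 replicate 3 was the only array of its scan day, so it did not bear on the difference of any gene in the scan-day fit. The later arrays spanned -6.74 to -6.08 and the earlier ones -6.90 to -5.99.

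APBB1IP, also known as RIAM, binds active Rap1 and brings talin to integrins, so that leukocytes can adhere. Its level in A46 was 0.41 in replicate 1, 0.16 in replicate 2, -0.19 in replicate 3 and -0.13 in replicate 4. In M1 it was 0.72, 0.19, 0.10 and -0.08 in replicates 1 to 4. The arrays numbered 1 were the brightest in both areas, and the areas overlapped widely.

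APBB1IP averaged 0.06 ± 0.28 (SD, n = 4) in A46 and 0.23 ± 0.34 in M1. The log2 difference was -0.17 ± 0.21 SE (95% interval -0.64 to 0.30, limma adjusted p = 0.904), and with the block the interval was -0.40 to 0.06 (adjusted p = 0.353). The same-numbered pairs differed by -0.31, -0.03, -0.29 and -0.05, so that M1 was higher in 4 of 4 pairs. A sign shared by all 4 pairs was found in 33.3% of the tested probes. Without M1 replicate 1 the difference was -0.007. When the scan day was taken as a block it was -0.10 (adjusted p = 0.615), and on the 5 arrays of the earlier days -0.05 (0.974). The 3 later arrays spanned -0.19 to -0.08 and lay below all 5 earlier ones (0.10 to 0.72). The share of all tested probes with such a split was not counted.

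ADAP2 carries an ARF GTPase-activating domain and a pair of PH domains, which bind membrane phosphoinositides. In A46 it lay at -4.33 in replicate 1, -4.14 in replicate 2, -4.81 in replicate 3 and -4.19 in replicate 4. In M1 it lay at -3.83, -3.92, -4.73 and -4.28 in replicates 1 to 4. The arrays numbered 3 were the lowest in both areas, although they were scanned on different days.

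ADAP2 averaged -4.37 ± 0.31 (SD, n = 4) in A46 and -4.19 ± 0.41 in M1. The log2 difference was -0.18 ± 0.23 SE (95% interval -0.71 to 0.36, limma adjusted p = 0.916; with the block -0.46 to 0.11, adjusted p = 0.436). The same-numbered pairs differed by -0.50, -0.21, -0.08 and 0.09, so that M1 was higher in 3 of 4. The first pair, whose arrays shared a slide, held the largest difference of ADAP2. Its spots on A46 replicate 1 also differed most, by 0.49 log2 units. Within the first scan day, where A46 replicate 2 met M1 replicates 2 and 3, the sign was the opposite, at 0.19. Without A46 replicate 3 the difference was -0.03, and without M1 replicate 3 it was -0.36, and neither passed. When the scan day was taken as a block it was -0.05 (adjusted p = 0.930), and on the 5 earlier arrays -0.07 (0.972).

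ALOX5, or 5-lipoxygenase, turns arachidonic acid into leukotriene A4, the precursor of the leukotrienes that draw leukocytes into tissue. In A46 it lay at -2.98 in replicate 1, -2.62 in replicate 2, -2.55 in replicate 3 and -1.63 in replicate 4. In M1 it lay at -3.02, -2.78, -2.16 and -1.34 in replicates 1 to 4. Both arrays numbered 4 stood above all others, and both arrays numbered 1 were the lowest.

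ALOX5 averaged -2.45 ± 0.58 (SD, n = 4) in A46 and -2.32 ± 0.75 in M1. The log2 difference was -0.12 ± 0.41 SE (95% interval -1.05 to 0.81, limma adjusted p = 0.970). With the block the interval narrowed to -0.42 to 0.18 (adjusted p = 0.596), since same-numbered arrays lay close together. The pairs differed by 0.04, 0.16, -0.40 and -0.29, so that A46 was higher in 2 of 4. The sign turned without A46 replicate 1 (0.06) and without M1 replicate 4 (0.21). When the scan day was taken as a block the difference of ALOX5 was -0.14 (adjusted p = 0.699), and on the 5 earlier arrays, which spanned -3.02 to -2.16, it was -0.15 (0.945).

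**Figure D3:**
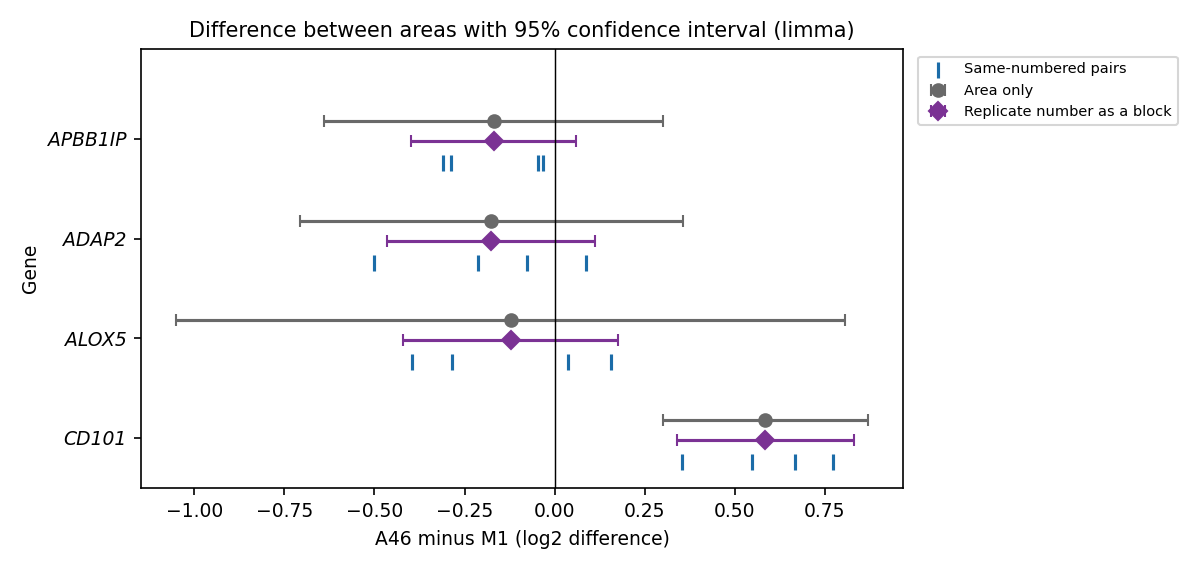
Difference between A46 and M1 for each gene, on the x axis in log2 units, with 95% confidence intervals from limma with area as the only term (grey) and with the replicate number as a block (purple), and the 4 same-numbered pairs as blue ticks. Both intervals of CD101 lie above 0, at 0.30 to 0.87 and 0.34 to 0.83, and those of the other genes include 0.

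The genes differed in what their variation followed. For each gene the sum of squares over the 8 arrays was divided between area, replicate number and the remainder. For CD101, area held 84.8% and the replicate number 9.18%. For ALOX5 the order was turned, with 1.09% for area and 95.1% for the number. The number also held most of the variation of APBB1IP (85.8%) and ADAP2 (81.8%), where area held 8.96% and 7.31%. Over all tested probes the median share was 9.33% for area and 66.3% for the number, so a large share of the number was common. The number has more degrees of freedom than area over the 8 arrays, so noise alone gives it the larger share. On the 4 arrays of the pairs numbered 1 and 2, all scanned on the earlier days, the number held 87.4% for ALOX5 and 75.9% for APBB1IP, and area held 85.9% for CD101 and 84.3% for ADAP2. The order of ADAP2 was thus turned there, and the median shares over all tested probes were 26.4% for area and 42.9% for the number. On these 4 arrays the number and the scan day coincide, so the shares do not tell them apart. Each share there has only 1 degree of freedom, so the shares over 4 arrays are not directly comparable with those over 8.

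The mean of a same-numbered pair ranged over 1.52 log2 units for ALOX5, 0.74 for ADAP2, 0.67 for APBB1IP and 0.24 for CD101. The SD of ALOX5 within an area was 0.67, larger than that of 92.0% of the tested probes. For CD101 it was 0.14, larger than that of 14.7% of them. The arrays of ALOX5 on the later scan days averaged -1.84 and the earlier ones -2.71, and the ranges overlapped. The replicate number and the scan day largely coincide, and whether the spread of ALOX5 belongs to animals or to scans cannot be told apart.

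**Figure D4:**
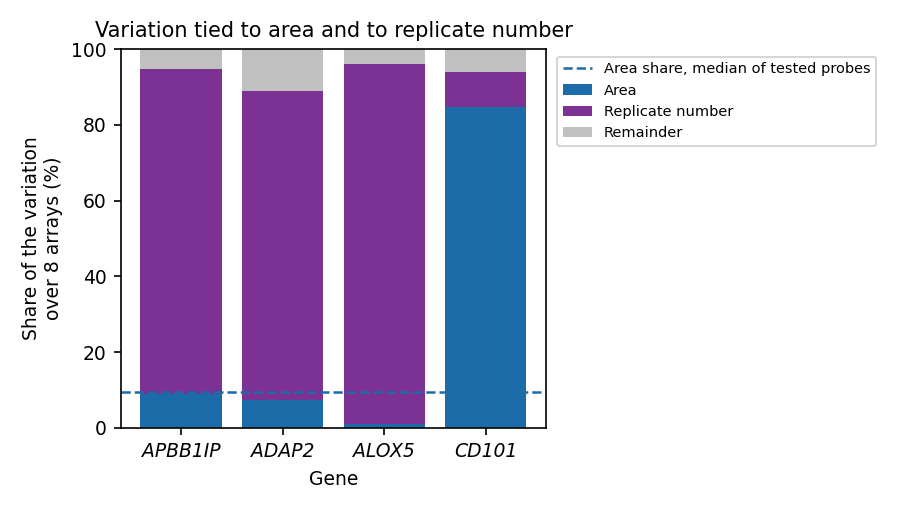
Share of the variation over the 8 arrays that goes with area, with replicate number and with neither, in percent of the sum of squares, for each gene. The dashed line is the median area share of all tested probes, 9.33%, and area held 84.8% for CD101 but 1.09% for ALOX5.

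The named genes that followed each member most closely over the 8 arrays were ranked by Pearson's r among 543 named genes, as a description of likeness. For CD101 they were NEURL1 (r = 0.94), EPHA3 (0.93) and SPC24 (0.91), and over the 5 earlier arrays r was 0.99, 0.93 and 0.99. EPHA3, an ephrin receptor, was higher in A46 by 1.35 log2 units in limma (adjusted p = 0.0332), and NEURL1, a ubiquitin ligase, stood at 0.36 (adjusted p = 0.372). For ALOX5 they were EIF2AK2, the RNA-activated kinase PKR (0.97), ALDH1B1 (0.95) and COPS4 (0.90), at 0.87, 0.88 and 0.75 over the 5 earlier arrays.

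For APBB1IP the closest were PARP14 (r = 0.96), ARID5B (0.92) and TPP1 (0.91), at 0.95, 0.90 and 0.78 over the 5 earlier arrays. In each of these 3 genes, as in APBB1IP, the 3 later arrays lay below all 5 earlier ones. The genes were picked for likeness to APBB1IP over the same arrays, so the shared split restates the ranking. For ADAP2 they were RPUSD4 (r = 0.92), PAEP (0.91) and ADHFE1 (0.90), at 0.90, 0.93 and 0.85. These arrays share animals and scan days, so a high r over 8 points is no sign of a common cell or pathway.

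Few partners of the 4 genes could be read. The 12 immune and pathway lists held 444 further genes, of which 30 had a named probe and 16 were tested. In limma 0 of the 16 passed, with 2 at an unadjusted p under 0.05, where 9.44% of all tested probes were. With the block 1 passed, ACKR1, higher in A46, against 0.973% of all tested probes called in that direction. The differences of the 16 ran from -0.62 to 0.66 with a median of -0.05, beside 0.01 over all tested probes. The other 14 named genes were not well above background on all arrays of an area. Among them were the neutrophil enzyme gene MPO and CXCR3, CLEC4E and IL17A, on 0 arrays, CD5 on 4, LYVE1 of border macrophages on 5 and ALOX12 on 6.

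Around ALOX5, OXER1 and PTGS2 were tested of 42 genes in the eicosanoid list, and 0 passed in either fit. OXER1, a receptor for an oxidized product of 5-lipoxygenase, stood at 0.39 ± 0.45 SE (limma adjusted p = 0.898), and PTGS2, the inducible cyclooxygenase, at -0.06 ± 0.17 SE (0.967). Around APBB1IP, only ITGA2B, the platelet integrin chain, was tested of 45 genes in the Rap1 and integrin list, at 0.30 ± 0.38 SE (0.911). Around ADAP2, its paralogue ADAP1 stood at 0.32 ± 0.56 SE (0.940) and the ARF exchange factor CYTH3 at 0.12 ± 0.11 SE (0.860). Of 33 genes in the list of inhibitory receptors that holds the relatives of CD101, LILRB1 alone was tested, at -0.27 ± 0.28 SE (0.886).

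The tested genes of immune cells stood on both sides of 0. MS4A4A, known from macrophages, stood at 0.14 ± 0.33 SE (limma adjusted p = 0.959), and it was the only tested gene of 22 in the list of monocytes and border macrophages. IL7R, a receptor of lymphocytes, stood at -0.36 ± 0.29 SE (0.831), the only one of 42 in the list of T cells and NK cells. Of the cytokines, chemokines and their receptors 7 of 96 were tested, with 2 differences above 0 and 5 below. ACKR1, a chemokine-binding receptor of venules, stood at 0.66 ± 0.25 SE (0.430, or 0.0473 in the blocked fit). IL18 stood at -0.42 ± 0.31 SE (0.803), CXCL16 at -0.40 ± 0.25 SE (0.731), IL6R at -0.09 ± 0.27 SE (0.969), IL2RG at -0.04 ± 0.26 SE (0.986) and CX3CL1, a neuronal ligand of microglia, at 0.08 ± 0.43 SE (0.983).

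Both tested genes of antigen presentation lay lower in A46 without passing, MAMU-E, a class I heavy chain, at -0.62 ± 0.22 SE (limma adjusted p = 0.388) and B2M, its light chain, at -0.41 ± 0.24 SE (0.700). In the granulocyte and the complement lists 2 genes each were named, and 0 were tested.

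Among the tested markers of other cells, UGT8 and ZNF488 of oligodendrocytes stood furthest from 0. In the oligodendrocyte list 3 of 26 genes were tested, UGT8 (-1.64 ± 0.28 SE, limma adjusted p = 0.0624), ZNF488 (-1.37 ± 0.25 SE, 0.0841) and TSPAN2 (-0.38 ± 0.11 SE, 0.287), all with a lower mean in A46. In the blocked fit UGT8 and ZNF488 passed, 2 of 3, against 1.61% of all tested probes called in that direction. ZNF488 was dim in A46, with a mean level of -6.59 and its lowest array at -7.10. The lowest level well above background on the A46 arrays ran from -8.01 to -7.01. The summed intensity of the 3 genes, in percent of the 75th percentile, was 9.08% to 13.2% in A46 and 25.1% to 51.6% in M1. Most of it was UGT8, with a mean level of -1.96 in M1 beside -5.22 for ZNF488 and -5.21 for TSPAN2. In the list of vessels and blood, ACKR1 and the globin gene HBE1 (0.07 ± 0.34 SE) were tested of 24, with a summed intensity of 226% to 383% in A46 and 154% to 293% in M1. Nearly all of that sum was ACKR1 (mean level 1.52 in A46 and 0.86 in M1), since HBE1 averaged -5.98 and -6.06. The astrocyte gene FGFR3, 1 of 17, stood at 0.05 ± 0.14 SE. The part of these cells in the values of CD101 was not tested.

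**Figure D5:**
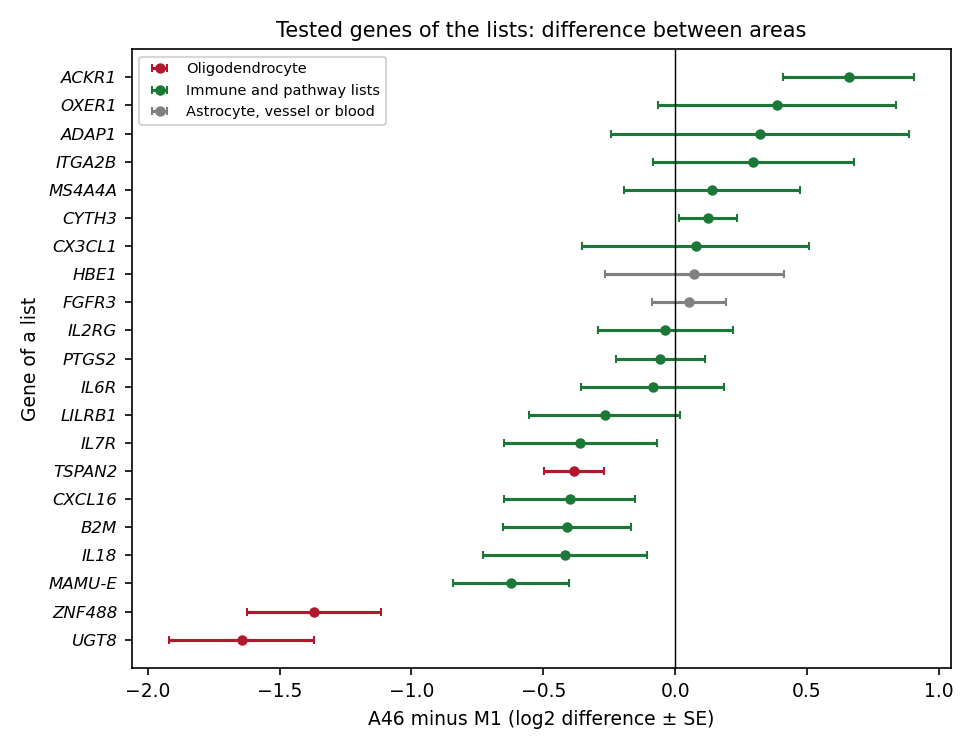
Difference between A46 and M1 for the 21 tested genes of the lists, in log2 units ± SE from limma with area as the only term. The 16 immune and pathway genes (green) lie between -0.62 and 0.66 on both sides of 0, and the 3 oligodendrocyte genes (red) lie between -1.64 and -0.38.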

How the data were processed

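Per the labels, Cy3-labelled complementary RNA was made from total RNA by oligo(dT)-primed reverse transcription and in vitro transcription. The deposited scanner files hold intensity values from Agilent Feature Extraction 10.7.3.1, background-subtracted and detrended within each array, per the file headers, with no normalization between arrays. The array was designed on the build rheMac2. The authors' deposited series table holds log2 values. Differences between its columns followed the scanner values (r = 1.000, 28 column pairs, median gap at most 0.0091), its column medians lay between -0.06 and 0.09, and how it was centred is not given here.

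Of 41851 spots per array, 1417 control spots and 0 to 220 outlier spots were left out, and 0 were saturated. Both spots of a probe were averaged as log2 intensity, less the array's 75th percentile. A probe entered the test if all 4 arrays of A46 or all 4 of M1 measured it well above background (14698 of 20217). The test was limma 3.58.1 in R 4.3.3 with area alone in the model (6 residual degrees of freedom) and Benjamini-Hochberg adjustment at 0.05. The area-only and the blocked fits were run on simulated data with independent noise on each array. Those data lack the correlation between same-numbered arrays, so they do not test how the fits handle it. Tables were read with Python 3.11.15, pandas 2.3.3 and scipy 1.17.1. The median SE was 0.18 log2 units.

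Names come from RefSeq accessions matched, versions aside, to the genes of another assembly, so no coordinates are given: 942 of 5583 such probes matched, 898 with a gene name. The highest-signal probe stood for a gene. Named are the 4 members, the 3 most similar genes of each, the tested genes of the immune and pathway lists, and list genes that passed or had the smallest p. HBE1 and TSPAN2 are named as the remaining tested markers. Untested genes and genes without a named probe are named after their values were seen. The 4 genes and the 16 lists were chosen with earlier results of these data known. No probe, gene or protein sequence was used here.

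Per the labels, 4 animals gave both areas, but no label ties a number to an animal. Deviations from the area mean over tested probes correlated between same-numbered arrays with r = 0.726, 0.634, 0.169 and 0.858 for numbers 1 to 4, all over 0.1, so the numbers were taken as pairs, from the data. The pairs numbered 1, 2 and 4 also shared a scan day, and the pair numbered 3 did not. Among unlike-numbered arrays, A46 replicate 3 and M1 replicate 4, of different scan days, reached 0.481. A46 replicate 2 and M1 replicate 3, of the same scan day, reached 0.259, above the pair numbered 3. These correlations therefore do not tell the number apart from the scan day, and the blocked calls rest on the number. The blocked fit has 3 residual degrees of freedom.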

Additional observations from a re-analysis of the deposited data

How the results depend on the processing

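ADAP2 and APBB1IP kept their sign and missed the threshold in all 34 alternatives each. For ALOX5 the sign turned in 4 of 34, with array weights (0.18), from the second spot alone (0.0043), without A46 replicate 1 (0.06) and without M1 replicate 4 (0.21), and the adjusted p stayed at 0.446 or above. Leaving out 1 array at a time gave -0.40 to 0.21 for ALOX5 and 0.52 to 0.65 for CD101, which never passed then (adjusted p 0.193 to 0.374). CD101 was positive in all 32 of its alternatives. It stood at 0.59 with the replicate block (adjusted p = 0.0489), with the random block (0.00871) and by the exact permutation test (p = 0.0286), at 0.58 with the deposited values and the block (0.0493), and at 0.46 from the first spot (exact permutation p = 0.0571). In the blocked fits without a pair it stood at 0.52 to 0.66. When dim probes were kept, the adjusted p was 0.273, and 0.146 with the block. Restricted to probes well above background on all 8 arrays, CD101 was not tested.

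Of all tested probes, 27 passed. The count was 380 with the replicate block, 984 with a random block, 153 with the scan day as a block, 41 with normexp, 138 with array weights and 45 with an intensity trend. It fell to 0 when dim probes were kept (1371 had an unadjusted p under 0.05) and on the 5 earlier arrays (1206), and 0 to 4 without 1 array. In blocked fits it was 386 with quantile normalization, 409 with median centring, 487 with normexp, 385 with the deposited values, 398 with probes well above background on all 8 arrays, 613 with an intensity trend, 0 with dim probes kept (2955) and 0 to 405 without a pair. In the lists the block raised the count from 0 to 1 for cytokines and for vessels (ACKR1 in both) and from 0 to 2 for oligodendrocytes. The cause of these changes was not tested. The slide as a random block could not be fitted, since only 1 slide held 2 arrays. Likeness on the first scan day alone was not run, since that day holds 3 arrays. The fits on the 5 earlier arrays, the shares of variation on 4 of them, and the block together with another scaling, filter or trend, were chosen after seeing the data. The signal of CD101 was dim, at 3.83 to 17.7 times the negative control.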
